A study of Homo sapiens with 12 samples.

Results

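Heat shock proteins and their DNAJ partners were followed in MDA-MB-231, a human triple-negative breast cancer cell line, as 64 genes among 22392 with a feature of their own on a whole-transcript array. A gene was taken where a feature carried exactly 1 annotated symbol that began with HSPA, HSPB, HSPD, HSPE, HSPH, HSP90, DNAJA, DNAJB or DNAJC and a number, or was HSF1, HSF2, BAG3 or CRYAB. Pseudogenes were left out. For a gene with several features, the one with the highest mean over the 12 arrays was used. The members were 26 DNAJC genes, 11 DNAJB genes, 4 DNAJA genes, 12 genes of the HSP70 and HSP110 class, 7 small heat shock proteins, 2 HSP90 genes and 2 regulators, HSF1 and BAG3. The arrays held 4 untreated control samples, 3 samples given GM-453 at 5 µg/mL, 2 given paclitaxel at 1 µg/mL and 3 given GNE-140 at 50 µM, all collected at 36 h. Paclitaxel stabilizes microtubules, GNE-140 blocks the LDHA and LDHB forms of lactate dehydrogenase, and GM-453 is a cytostatic benzamide. The controls were untreated, so solvent and compound cannot be told apart. The study names DMSO as the solvent of GM-453 and paclitaxel, and its paper does not mention GNE-140. Nothing in the labels says that replicates were separate cultures, and p-values therefore measure only the spread between these samples, which may be technical.

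HSP70 proteins hold unfolded stretches of other proteins in a cycle driven by ATP. J proteins, the DNAJ family, bring them their clients and start ATP hydrolysis, and HSP110 proteins release the nucleotide. HSP90 takes over clients such as kinases and steroid receptors, and small heat shock proteins bind unfolding proteins without ATP. HSF1 switches on much of the cytosolic set when proteins misfold, while the endoplasmic reticulum (ER) has its own chaperones and its own stress response. Cancer cells often keep cytosolic chaperones at a high level.

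Several central members of these families lay only on features that carry more than 1 symbol and were not measured here as single genes. They were HSPA1A, HSPA1B, HSPA8, HSP90B1, HSPD1, HSPE1, HSPB2, DNAJB3, DNAJB6, DNAJC9 and DNAJC25, 11 genes in all. HSF2 matched no feature with 1 symbol. Thus the stress-inducible HSP70 pair, the constitutive HSC70 and the mitochondrial HSP60 and HSP10 were not followed. Of the 64 members, 50 had a mean signal at or above the median of all features and 14 lay below it, among them CRYAB, HSPA6 and 5 of the HSPB genes. No filter on low signals was applied.

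The promoters of the 4 members that passed the test against the controls are shown first, because 3 of them carry a pair of heat shock units, the inverted 5-base repeats to which heat shock factors bind. The search covered the 250 bases before each RefSeq start (GRCh38.p14) on both strands for TTCNNGAA or GAANNTTC, and the letters that match are in capitals. The second form was added after these promoters had been looked at, and every match in them is of that form. The windows lay at chr6:31815284-31815533 on the minus strand for HSPA1L, chr19:14518398-14518647 on the minus strand for DNAJB1, chr7:76302423-76302672 on the plus strand for HSPB1 and chr7:103344768-103345017 on the minus strand for DNAJC2.
HSPA1L: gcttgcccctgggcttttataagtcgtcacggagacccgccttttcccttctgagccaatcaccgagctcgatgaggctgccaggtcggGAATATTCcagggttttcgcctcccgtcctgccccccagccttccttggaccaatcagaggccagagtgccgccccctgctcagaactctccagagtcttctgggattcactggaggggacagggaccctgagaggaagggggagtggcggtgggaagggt
DNAJB1: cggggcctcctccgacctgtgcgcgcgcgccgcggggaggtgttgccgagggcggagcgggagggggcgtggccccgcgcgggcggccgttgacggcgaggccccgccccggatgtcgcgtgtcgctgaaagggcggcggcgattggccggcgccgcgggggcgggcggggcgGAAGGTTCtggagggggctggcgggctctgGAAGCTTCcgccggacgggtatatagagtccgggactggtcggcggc
HSPB1: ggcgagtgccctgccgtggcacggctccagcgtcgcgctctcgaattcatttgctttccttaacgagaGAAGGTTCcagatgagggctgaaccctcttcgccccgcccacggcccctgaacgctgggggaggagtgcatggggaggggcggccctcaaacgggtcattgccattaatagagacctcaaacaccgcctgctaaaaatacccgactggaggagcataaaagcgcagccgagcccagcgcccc
DNAJC2: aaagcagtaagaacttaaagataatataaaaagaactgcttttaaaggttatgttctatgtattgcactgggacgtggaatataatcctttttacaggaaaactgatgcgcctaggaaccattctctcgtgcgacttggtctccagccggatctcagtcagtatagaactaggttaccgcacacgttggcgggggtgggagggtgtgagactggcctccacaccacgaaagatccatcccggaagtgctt

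The DNAJB1 window held 2 matches and those of HSPA1L and HSPB1 held 1 each. DNAJB1 has 3 annotated starts, and only the window printed held a match. The HSPA1L window ends 10 bases before the RefSeq start of HSPA1A, which runs the other way, so both genes have it upstream. Among 74 windows of the 56 members found in the table, 15 held a match (20.3%), against 11.6% of all 35116 windows of that length. Both forms are counted together, and the printed windows that led to the second form are included. The share therefore cannot test for an excess in members. The longer form with 1 more unit in turn at the same spacing, which contains the shorter one, was found for HSP90AA1, HSP90AB1 and HSPA6, in 4.05% of member windows and 0.441% of all. HSPA5, the HSP70 of the ER, was the only member whose window held the ER stress element (CCAAT and CCACG at its fixed spacing), which stood in 0.074% of all windows. These matches describe the letters only.

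Median log2 signals of the arrays ran from 2.64 to 2.82. Among the controls, replicate 4 stood apart most, with a mean correlation over all features of 0.978 with the GNE-140 arrays and 0.951 with the other controls. Control replicate 3 correlated at 0.965 with the GNE-140 arrays, and control replicates 1 and 2 at 0.957 each. Its source label reads HTB-27 where the other 11 read HTB-26, the catalogue number. Of 6 markers of MDA-MB-231, the mesenchymal VIM lay between 7.36 and 8.21 and the receptor kinase AXL between 8.50 and 9.77 over the 12 arrays. CD44 lay between 7.29 and 8.49 and CAV1 between 6.32 and 7.60. ZEB1 was lower, at 4.17 to 5.05. SPARC, at 2.24 to 3.04, was as low as the oestrogen receptor gene ESR1, which lay between 2.11 and 3.20. The epithelial KRT19 and EPCAM were not low, at 5.60 to 6.88 and 5.43 to 6.38. The median over 8 luminal markers was highest in control replicate 4, at 4.26, against 3.13 to 3.84 on the other arrays. Of the 8, TFF1 and FOXA1 were highest there, while ESR1, PGR, GATA3, KRT19, CDH1 and EPCAM were each higher on another array. The medians over fibroblast or muscle markers and over adipocyte markers were also highest in control replicate 4, and those over leukocyte and endothelial markers were not. The median over the 6 markers of MDA-MB-231 was lowest in control replicate 4, at 6.9065. It was 7.81, 7.69 and 7.1065 in the other controls and 6.9095 to 6.9445 with GNE-140. Of the 6, CD44 and ZEB1 were lowest in control replicate 4, while VIM, AXL, CAV1 and SPARC were each lower on another array. The part these markers play in the results below was not tested. Calls against the controls are therefore also given without control replicate 4. Those fits keep control replicate 3. Counts of groups that do not overlap, unadjusted counts and medians hold all 4 controls.

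With GNE-140, 2 members rose against the controls, HSPA1L and DNAJB1, and none fell. This is 3.12% of the members, where 1.26% of all features passed the same threshold of an adjusted p under 0.05 (limma, Benjamini-Hochberg over all 53617 features). The compounds share the 4 controls in these comparisons. In bulk RNA, fewer cells of a kind and less RNA per cell cannot be told apart.

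HSPA1L encodes a constitutive HSP70 that is best known from the testis. Its log2 signals were 3.83, 3.60, 3.92 and 4.14 in the controls and 4.63, 4.75 and 4.78 with GNE-140. The 3 treated arrays all lay above the 4 controls. The mean went from 3.87 ± 0.22 (SD, n = 4) to 4.72 ± 0.08 (SD, n = 3). The log2 fold change was 0.85 (SE 0.14, limma adjusted p = 0.013). Without control replicate 4 it was 0.94 (adjusted p = 0.0030), and leaving out GNE-140 replicate 1, 2 or 3 ended the call, with adjusted p of 0.0594, 0.0889 and 0.0764. The gene has 5 features, of which 3 hold identical values, and the dimmest gave 0.74 with an adjusted p of 0.0516. HSPA1L is a near relative of HSPA1A and HSPA1B, and how far its features also read their RNA was not tested.

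DNAJB1, the cytosolic HSP40 that works with stress-inducible HSP70, gave 7.23, 7.18, 7.41 and 7.36 in the controls and 7.86, 7.77 and 7.77 with GNE-140. Again no treated array overlapped the controls. The log2 fold change was 0.50 (SE 0.11, limma adjusted p = 0.0444). It was 0.53 without control replicate 4 (adjusted p = 0.0145), but leaving out any other array put the adjusted p above the threshold, at up to 0.207.

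Other cytosolic genes lay higher with GNE-140 without passing the test. HSPH1, the main HSP110, read 7.54, 7.57, 7.99 and 7.76 in the controls and 8.24, 8.25 and 8.27 with GNE-140, a log2 fold change of 0.54 (SE 0.12, limma adjusted p = 0.0642). HSPA4L, a second HSP110, read 6.76, 6.72, 6.22 and 5.95 against 7.04, 7.14 and 7.17 (0.70, SE 0.19, limma adjusted p = 0.104). In both genes the groups were separate and the controls were the more scattered group. DNAJB4, a DNAJB1 relative, read 3.78 in control replicate 4, 4.87 to 5.22 in the other controls and 5.42 to 5.80 with GNE-140. Its log2 fold change was 0.86 (SE 0.29, limma adjusted p = 0.181), and 0.54 without control replicate 4 (adjusted p = 0.0568). DNAJA1, a farnesylated HSP40, differed by 0.37 (limma adjusted p = 0.167).

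Without control replicate 4, 6 members passed for GNE-140 (9.38%), all higher, but so did 11% of all features. They were HSPA1L, DNAJB1, HSPH1 at 0.55 (limma adjusted p = 0.0257), DNAJB2 at 0.51 (0.026), DNAJA1 at 0.41 (0.0463) and HSPA4L at 0.55 (0.0498). DNAJB2 is a J protein best known from neurons. BAG3, the HSP70 co-chaperone that steers clients to autophagy, lay lower, at 5.92, 5.68, 5.59 and 5.93 in the controls and 5.34, 5.42 and 5.48 with GNE-140. Its log2 fold change was -0.36 (SE 0.12, limma adjusted p = 0.176), or -0.31 without control replicate 4 (adjusted p = 0.112). BAG3 is itself a classical HSF1 target, and whether HSF1 plays a part in these differences was not tested. Over all members, 12 had every GNE-140 array above the controls and 4 had every one below. That was 18.8% and 6.25% of members, against 7.11% and 8.2% of all features. These backgrounds were not limited to features as bright as most members. At an unadjusted p under 0.05, 11 members lay higher and 2 lower, where 8.41% and 8.38% of all features did. The median log2 fold change of the members was 0.12, and 0.0022 over all features, while the median signals of the GNE-140 arrays lay on average 0.11 above those of the controls.

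**Figure D1:**
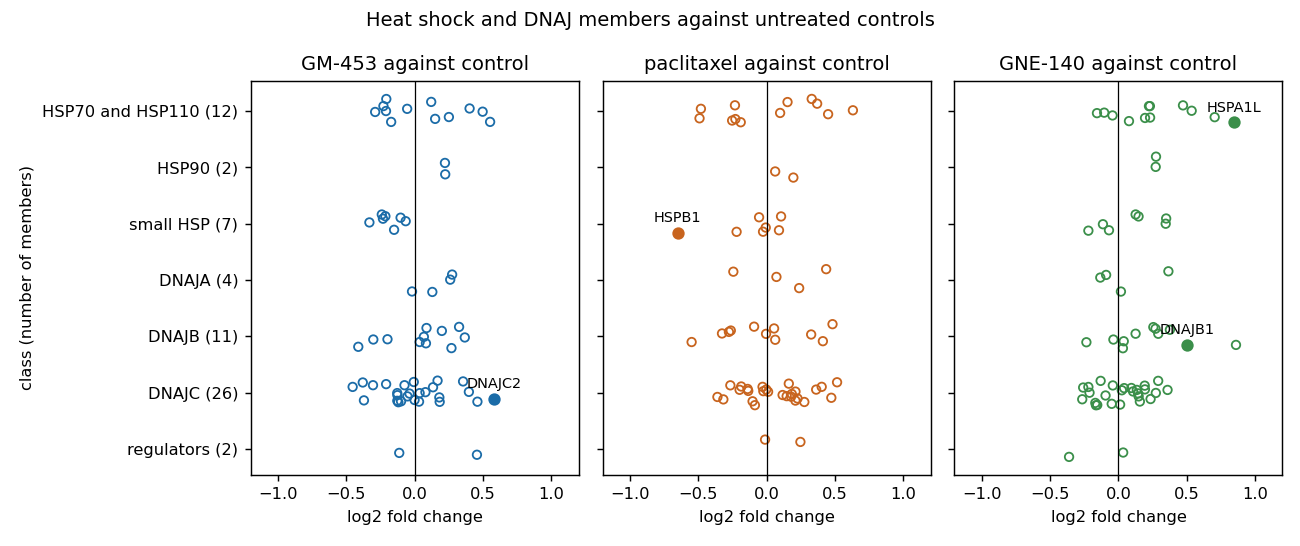
Log2 fold change of each of the 64 members against the 4 controls (horizontal axis), by class (vertical axis, points spread for legibility), for GM-453, paclitaxel and GNE-140. Filled points passed an adjusted p under 0.05: DNAJC2 with GM-453, HSPB1 with paclitaxel, and HSPA1L and DNAJB1 with GNE-140.

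With GM-453, 1 member rose, DNAJC2, and none fell, 1.56% of the members against 1.84% of all features. The share is thus near the background. DNAJC2 encodes a J protein of the ribosome-associated complex, which meets new chains as they leave the ribosome. Its signals were 5.95, 6.05, 6.35 and 6.06 in the controls and 6.64, 6.84 and 6.56 with GM-453, without overlap. The log2 fold change was 0.58 (SE 0.13, limma adjusted p = 0.0459). It was 0.56 without control replicate 4 (adjusted p = 0.0676), and only without control replicate 3 did the call remain (adjusted p = 0.0322).

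HSPA14, the HSP70 that partners DNAJC2 at the ribosome, read 5.62, 5.57, 5.34 and 4.89 in the controls and 6.11, 6.04 and 5.56 with GM-453. The groups overlapped, and the log2 fold change was 0.55 (SE 0.19, limma adjusted p = 0.206). HSF1 itself lay between 5.26 and 5.30 in all 4 controls and read 5.80, 5.64 and 5.73 with GM-453. That log2 fold change was 0.46 (SE 0.12, limma adjusted p = 0.0817), with no overlap, and 0.45 without control replicate 4 (adjusted p = 0.105). HSPH1 read 8.25, 8.19 and 8.21 with GM-453, above every control (0.50, SE 0.12, limma adjusted p = 0.0718, and 0.51 with an adjusted p of 0.0826 without control replicate 4).

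Members on the lower side of GM-453 did not pass the test in the full set. DNAJC16, a J protein of the ER membrane, read 4.68, 4.87 and 4.89 against 4.94 to 5.55 in the controls (-0.45, SE 0.14, limma adjusted p = 0.159). Without control replicate 4 it passed, at -0.56 (adjusted p = 0.0474), and was then the only member called for GM-453 (1.81% of all features). HSPB1 lay at 7.14, 7.19 and 7.22, below all controls (-0.33, SE 0.11, limma adjusted p = 0.170, and -0.32 with an adjusted p of 0.203 without control replicate 4). The 7 small heat shock proteins all had a negative fold change, with a median of -0.22 against 0.0087 over all features, but 6 of them are among the dim members and none passed. Groups did not overlap for 9 members above and 7 below the controls, 14.1% and 10.9%, against 5.79% and 5.21% of all features. The median over the members was -0.0044. At an unadjusted p under 0.05, 8 members lay higher and 5 lower, where 7.64% and 6.45% of all features did.

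With paclitaxel, 1 member fell, HSPB1, and none rose, 1.56% of the members against 0.657% of all features. HSPB1, or HSP27, is an abundant small heat shock protein of epithelial and breast cancer cells that also binds actin. Its signals were 7.59, 7.50, 7.43 and 7.55 in the controls and 6.75 and 6.98 with paclitaxel. The paclitaxel arrays were the lowest of all 12. The log2 fold change was -0.65 (SE 0.12, limma adjusted p = 0.0382). Without control replicate 4 it was -0.64 (adjusted p = 0.0505), and leaving out a paclitaxel array gave -0.54 and -0.77 with adjusted p of 0.372 and 0.194. Only without control replicate 2 did the call remain (adjusted p = 0.0474).

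HSPA1L read 3.42 and 3.34 with paclitaxel, below every control (-0.49, SE 0.15, limma adjusted p = 0.206). DNAJB1 read 7.02 in both arrays, also below every control (-0.28, SE 0.12, limma adjusted p = 0.389). These genes thus lay on the opposite side of the controls from GNE-140. DNAJC2 read 6.71 and 6.52, above every control, as with GM-453 (0.52, SE 0.15, limma adjusted p = 0.154). HSPA4L stood at 6.97 and 7.12 (0.63, SE 0.21, limma adjusted p = 0.250). With 2 paclitaxel arrays, 16 members lay wholly above and 8 wholly below the controls, 25% and 12.5%, against 10.9% and 8.52% of all features. The median over the members was 0.03. At an unadjusted p under 0.05, 7 members lay higher and 5 lower, where 7.14% and 4.71% of all features did.

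**Figure D2:**
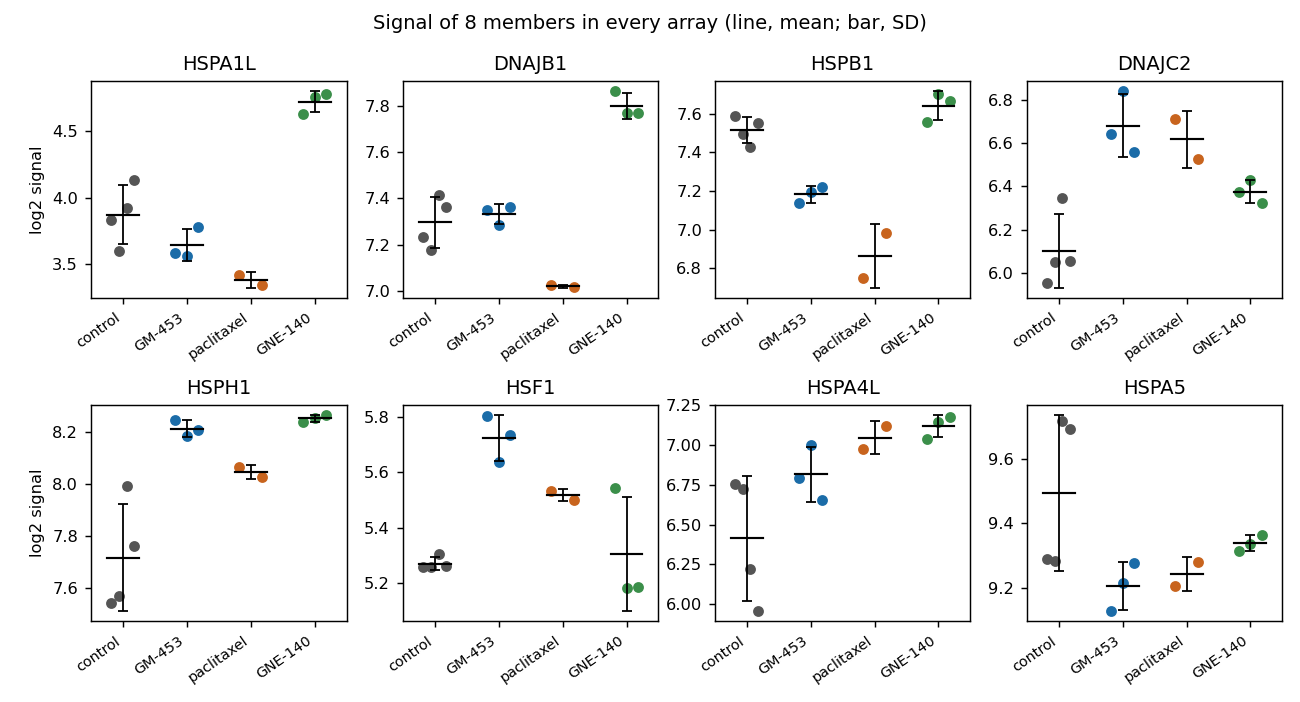
Log2 signal (vertical axis, scale set for each gene) of 8 members in every array of the 4 groups (points), with the mean (line) and SD (bar). HSPA1L and DNAJB1 lie highest with GNE-140 and lowest with paclitaxel, HSPB1 is lowest with paclitaxel, and HSF1 is highest with GM-453.

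The compounds were also set against each other, which leaves the controls out of the difference. Between GM-453 and paclitaxel no member passed (limma), 2 higher and 1 lower had an unadjusted p under 0.05, and the methods' t-test called 0. Of all features, 0.0242% passed there, and 3.28% and 3.83% were higher and lower at an unadjusted p under 0.05. Between GM-453 and GNE-140, 6 members passed (9.38%), against 9.56% of all features, a share like the background. Between paclitaxel and GNE-140, 3 passed (4.69%), against 4.06%. Bright features pass more often, and all calls lay in the 50 members at or above the median signal. Of these 50, 12% passed between GM-453 and GNE-140 and 6% between paclitaxel and GNE-140, against 15.2% and 6.78% of all features as bright. Against the controls the shares of these 50 were 2% for GM-453, 2% for paclitaxel and 4% for GNE-140, against 3.38%, 1.12% and 2.32%. Their median log2 fold changes were 0.051, 0.059 and 0.14, against -0.0069, 0.022 and 0.033 for features as bright. Shares without overlap and at an unadjusted p under 0.05 were set against all features only, so brightness is not allowed for there.

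HSPA1L differed most. It lay 1.08 lower on the log2 scale with GM-453 than with GNE-140 (95% interval -1.39 to -0.76, limma adjusted p = 0.0014) and 1.34 lower with paclitaxel than with GNE-140 (-1.69 to -0.98, adjusted p = 0.00145). On the features used, these were the only called member differences above 2-fold, which 3.29% and 2.37% of all features reached. Both HSPA1L calls passed in each of 23 alternative fits, a fold limit of 2 and each array left out among them. The dimmer HSPA9 feature, which was not used, lay 1.74 higher with GM-453 than with GNE-140 (limma adjusted p = 0.0144). DNAJB1 was lower by 0.47 with GM-453 (SE 0.11, limma adjusted p = 0.0259) and by 0.78 with paclitaxel (SE 0.13, adjusted p = 0.00644). HSPB1, whose GNE-140 arrays read 7.56, 7.70 and 7.67, was lower by 0.46 with GM-453 (SE 0.12, limma adjusted p = 0.0305) and by 0.78 with paclitaxel (SE 0.13, adjusted p = 0.00742). Without paclitaxel replicate 1 or 2 the call of DNAJB1 against paclitaxel ended (highest adjusted p = 0.0775), and without paclitaxel replicate 1 that of HSPB1 (adjusted p = 0.103). Against GM-453, leaving out any GM-453 or GNE-140 array ended both calls. For HSPA1L, DNAJB1 and HSPB1 no array of GM-453 or paclitaxel reached the lowest GNE-140 array.

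The remaining calls between GM-453 and GNE-140 were in J proteins. DNAJC16 read 5.44, 5.45 and 5.50 with GNE-140 and was lower by 0.65 with GM-453 (SE 0.15, limma adjusted p = 0.0245). DNAJC21, a factor in the maturation of large ribosomal subunits, read 6.46, 6.34 and 6.48 with GNE-140 and 5.86, 6.15 and 5.78 with GM-453 (-0.50, SE 0.13, limma adjusted p = 0.0352). DNAJB12, an ER membrane J protein with its J domain towards the cytosol, was the 1 member higher with GM-453, at 6.31, 6.32 and 6.30 against 5.93, 5.79 and 5.91 (0.43, SE 0.11, limma adjusted p = 0.0319). Leaving out any 1 of the GNE-140 arrays ended these 3 calls, as did leaving out GM-453 replicate 1. Those of DNAJC21 and DNAJB12 also ended without either paclitaxel array, that of DNAJC16 without GM-453 replicate 2, that of DNAJC21 without GM-453 replicate 3 and that of DNAJB12 without GM-453 replicate 2 or 3. DNAJC5, the cysteine string protein of exocytosis, missed the threshold at 0.59 (SE 0.17, limma adjusted p = 0.0526), as did HSF1 at 0.42 (SE 0.13, adjusted p = 0.0570). Without control replicate 4 the differences stay as they are, but the spread shrinks and 13 members pass (20.3%, against 17% of all features), with HSF1 (adjusted p = 0.0406), DNAJC5 (0.0332) and HSPA14 (0.0219) among them.

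**Figure D3:**
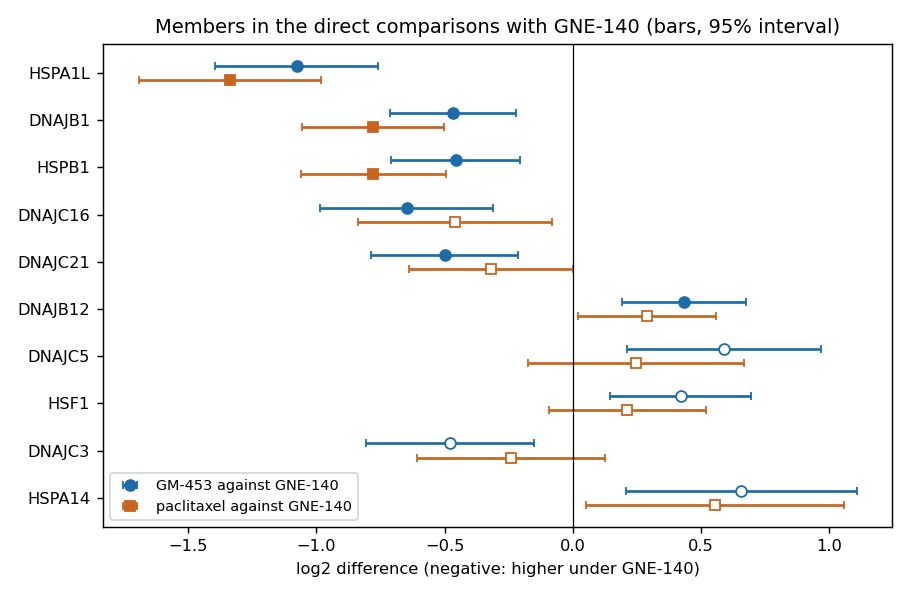
Log2 difference from GNE-140 (horizontal axis, negative where GNE-140 is higher) of 10 members with GM-453 (circles) and paclitaxel (squares), with 95% intervals. Filled symbols passed an adjusted p under 0.05, and the intervals of HSPA1L, DNAJB1 and HSPB1 lie below 0 for both compounds.

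No HSP90 gene passed in any comparison with the controls. HSP90AB1, the constitutive HSP90, read 9.67, 9.62, 9.31 and 9.70 in the controls and 9.71 to 9.93 over the 8 treated arrays. All 8 lay above the controls by a narrow margin. Its log2 fold changes were 0.22 for GM-453, 0.20 for paclitaxel and 0.27 for GNE-140, with limma adjusted p of 0.453, 0.653 and 0.287. Without control replicate 3, the lowest, those for GM-453 and paclitaxel were 0.14 and 0.11. HSP90AA1, the inducible form, read 5.82 to 5.91 in the controls and 6.10 to 6.17 with GNE-140 (0.27, SE 0.10, limma adjusted p = 0.211). HSPA4, the third HSP110 gene, differed by 0.15 with GM-453, 0.15 with paclitaxel and 0.19 with GNE-140, with limma adjusted p of 0.447 or more. Without control replicate 4 these were 0.068, 0.071 and 0.11.

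HSPA5 read 9.29, 9.28, 9.72 and 9.69 in the controls, which fell into a lower and a higher pair. The treated arrays ran from 9.13 to 9.36, and no fold change passed (-0.29 for GM-453, -0.25 for paclitaxel, -0.16 for GNE-140, limma adjusted p of 0.366 or more). Without control replicate 3 the value for GNE-140 was -0.084. DNAJB11, an ER lumen partner of HSPA5, went the other way: it read 6.26 to 6.46 in the controls and 6.48 to 6.97 over the treated arrays, all above them, with 0.37 for GM-453, 0.41 for paclitaxel and 0.26 for GNE-140 (limma adjusted p of 0.227, 0.293 and 0.352). DNAJC3, an ER stress-induced J protein, read 7.14, 7.31 and 6.70 with GM-453 against 7.38 to 7.49 in the controls (-0.37, SE 0.14, limma adjusted p = 0.248). Without GM-453 replicate 3, the lowest, it was -0.20. DNAJB9, another such protein, was lower than every control with GM-453 and paclitaxel, at 3.64 to 3.90, and its controls were 3.98, 4.03, 4.90 and 4.04. Thus the ER members shared no direction. HSPA9, the mitochondrial HSP70, has 2 features that disagree in size. The brighter one gave 0.25 for GM-453 and the dimmer one 1.32, with limma adjusted p of 0.391 and 0.0818. Between GM-453 and GNE-140 they gave 0.29 and 1.74, with limma adjusted p of 0.165 and 0.0144.

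Genes that work with these chaperones were counted from 6 lists, first against the controls, where 1.84%, 0.657% and 1.26% of all features passed for GM-453, paclitaxel and GNE-140. Features at or above the median signal passed more often, at 3.38%, 1.12% and 2.32%, and brightness was not allowed for in the lists. In the co-chaperones of HSP90 and HSP70 no gene of 19 found passed for any compound, with 5 higher and 0 lower at an unadjusted p under 0.05 for GM-453, 1 and 0 for paclitaxel, 2 and 3 for GNE-140, and 0 by the methods' t-test. For the TRiC and prefoldin subunits, which fold actin and tubulin, 1 of 13 passed for GM-453 (7.69%): PFDN2 rose by 0.51 (SE 0.11, limma adjusted p = 0.0397). It missed the threshold whichever array was left out, with 0.49 without control replicate 4 (adjusted p = 0.0555). The medians of that list were 0.30 for GM-453, 0.22 for paclitaxel and 0.05 for GNE-140, against 0.0087, 0.001 and 0.0022 over all features. At an unadjusted p under 0.05, 7, 6 and 2 of its genes were higher for these compounds and 0 were lower for each. Of all features, 7.64%, 7.14% and 8.41% were higher and 6.45%, 4.71% and 8.38% lower at that level. Of 13 mitochondrial chaperones and proteases, 1 passed for GNE-140 (7.69%): LONP1, the matrix protease, fell by 0.79 (SE 0.15, limma adjusted p = 0.0285). That call was lost without control replicate 1 or 2 or any GNE-140 array, and was -0.88 without control replicate 4 (adjusted p = 0.0071). Among 11 other stress genes, 1 passed for GM-453 (9.09%): RGS2, a regulator of G protein signalling, fell by 0.97 (SE 0.16, limma adjusted p = 0.0128), and its value was -1.01 without control replicate 4 (adjusted p = 0.0191).

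Against the controls, none of 22 ER folding genes or of 4 J and small heat shock proteins under other names passed by limma, and 0 by the methods' t-test. The ER list had 6, 3 and 3 genes lower and 0 higher at an unadjusted p under 0.05 for GM-453, paclitaxel and GNE-140. Of all features, 6.45%, 4.71% and 8.38% were lower and 7.64%, 7.14% and 8.41% higher at that level. The medians of the ER list were -0.19, -0.16 and -0.15, against 0.0087, 0.001 and 0.0022 over all features.

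Between GM-453 and GNE-140, where 9.56% of all features passed, 4 of the 13 mitochondrial genes did (30.8%). Of features at or above the median signal, 15.2% passed, and the brightness of the listed genes was not allowed for. LONP1 was higher by 1.05 with GM-453 (SE 0.16, limma adjusted p = 0.00289), GRPEL1, the nucleotide exchange factor of mitochondrial HSP70, by 0.67 (adjusted p = 0.0187) and TIMM44, which ties that HSP70 to the import channel, by 0.60 (adjusted p = 0.0273). CLPX, a subunit of a matrix protease, differed by -0.49 (adjusted p = 0.0417). Of the 19 co-chaperones 3 passed (15.8%), all higher with GM-453. They were SGTA at 0.97 (limma adjusted p = 0.0268), TOMM34 at 0.60 (0.0271) and CDC37, which brings kinases to HSP90, at 0.40 (0.0446). SEL1L, of ER-associated degradation, was the 1 ER gene of 22 that passed, at -0.43 (adjusted p = 0.0487). The call of LONP1 stayed whichever array was left out, and the other 7 ended whichever GNE-140 array was left out and without GM-453 replicate 1. Those of GRPEL1 and TIMM44 also ended without GM-453 replicate 2, that of CLPX without GM-453 replicate 3 and those of CDC37, TOMM34, SGTA and SEL1L without either of these. Leaving out either paclitaxel array ended those of CLPX, CDC37 and SEL1L, and so did control replicate 2 or 3 for CDC37 and 1 or 2 for SEL1L. Of the TRiC and prefoldin subunits and the J proteins under other names, 0 passed by limma, with 6 of the former higher and 0 lower, and 1 of the latter higher and 1 lower, at an unadjusted p under 0.05. The methods' t-test called 3 and 0 of them. SQSTM1, an autophagy receptor, was lower than with GNE-140 by 1.12 with GM-453 (SE 0.15, limma adjusted p = 0.00125) and by 1.10 with paclitaxel (SE 0.17, adjusted p = 0.00429), and the latter call ended without paclitaxel replicate 2. It was the only gene of these lists that passed by limma between paclitaxel and GNE-140, where 4.06% of all features did. None passed by limma or the methods' t-test between GM-453 and paclitaxel, and at most 1 gene of a list was higher and 1 lower at an unadjusted p under 0.05. These genes were named after their values between compounds were seen.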

How the data were processed

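RNA of 12 samples was hybridized to GeneChip Human Gene 2.1 ST arrays. The authors turned the scans into log2 signals with Affymetrix Expression Console, and these deposited log2 values of 53617 features were used as given. For the tool's version, background correction and summarization, the sources used here give nothing, and each can compress small differences. Symbols came from the platform annotation and were checked against RefSeq (GRCh38.p14), which also gave the promoters.

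A single linear model held the 4 groups of all 12 arrays, with 6 contrasts (limma 3.58.1, R 4.3.3, lmFit and eBayes), with Benjamini-Hochberg over all features and a call at an adjusted p under 0.05. No fold limit was set, and no correction was made across contrasts. "The methods' t-test" is Student's test, which the study names beside one-way ANOVA for its experiments in general, run per feature with the same adjustment. For its arrays the study used the Affymetrix transcriptome analysis console and names no test. On simulated data with 2-fold changes, 50.7% were recovered for GM-453, 34.3% for paclitaxel and 47.8% for GNE-140, and of 1.5-fold changes 16.4%, 5.97% and 14.9%. The number of arrays limits the precision.

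Members, lists, motifs and tests were chosen with earlier results of these data known. Genes named are those called, the 2 largest changes per class and a core list, and others named (DNAJB2 for one) and those of the related lists between compounds were chosen after their values were seen. Alternatives covered limma-trend, array weights, the t-test, the groups fitted, dim features, the features adjusted over, scaling, a fold limit of 2, the feature per gene, a replicate block and each array left out.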

Additional observations from a re-analysis of the deposited data

Results flagged for a closer look

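In 6 of the 64 members, 1 of the 4 controls lay far from the other 3 by Dixon's test, where chance flags about 1 in 20 groups. Control replicate 4 was the distant array in 3 of them: DNAJB14, an ER membrane J protein, read 4.15 there and 5.22 to 5.24 in the other controls. DNAJB2 read 3.92 there against 3.35 to 3.41, and HSPA12B, a distant HSP70 relative, 3.49 against 2.72 to 2.77. Control replicate 3 was distant in 2: DNAJB9 read 4.90 against 3.98 to 4.04, and HSF1 5.30 against 5.26 in the rest, a gap that is small in itself. HSPA6, an inducible HSP70 at low signal, read 1.89 in control replicate 1 against 2.32 to 2.39. Dixon's test looks for a single distant array, so it cannot flag controls that fall into pairs, as those of HSPA4L did.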

How the results depend on the processing

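Of 966 recomputed counts of called genes, members and related lists together, 781 lay within 1.5 times the reported count, and the cause of the other changes was not tested. Calls in members (reported: 1 for GM-453, 1 for paclitaxel and 2 for GNE-140 against the controls, 0, 6 and 3 between compounds) numbered 2 for GM-453 with limma-trend and 3 with dim features left out, where fewer features share the adjustment. For GM-453 they were 0 with array weights, the methods' t-test, only the compared groups, quantile normalization, median centring, a fold limit of 2 and the replicate block. For paclitaxel they were 0 with the t-test, the compared groups, median centring, the fold limit and the replicate block. For GNE-140 they were 5 with array weights, 4 with quantile normalization, 4 with the replicate block, 1 with median centring, 1 with the dimmest feature per gene, and 0 with the t-test, the compared groups and the fold limit. Between GM-453 and GNE-140 they were 14 with array weights, 12 with the compared groups, 13 without dim features, 10 over features with 1 symbol and 1 with the fold limit. Between paclitaxel and GNE-140 they were 16, 12 and 1 with array weights, the compared groups and the fold limit, and 6 with quantile normalization. Leaving out 1 array gave 0 to 2, 0 to 1 and 0 to 6 against the controls for GM-453, paclitaxel and GNE-140. It gave 0 to 0 between GM-453 and paclitaxel, 1 to 13 between GM-453 and GNE-140 and 1 to 4 between paclitaxel and GNE-140. The highest value in the last 2 and for GNE-140 was that without control replicate 4.

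In the related lists against the controls, co-chaperone calls for GM-453 were 1 with limma-trend and 1 without dim features. For GNE-140 they were 1 with limma-trend, dim features left out, quantile normalization and the replicate block, and 4 with array weights. TRiC and prefoldin calls for GM-453 were 2 with limma-trend and without dim features, and 0 with array weights, the t-test, the compared groups, median centring, the fold limit and the replicate block. Stress gene calls for GM-453 and mitochondrial calls for GNE-140 were 0 with the t-test, the compared groups and the fold limit. Stress gene calls for GNE-140 were 2 with array weights and the replicate block and 1 without dim features or over features with 1 symbol, and J proteins under other names gave 1 with array weights. Leaving out 1 array gave 0 to 1 co-chaperones, 0 to 0 TRiC and prefoldin genes and 1 to 1 stress genes for GM-453, and 0 to 3, 0 to 0 and 0 to 2 for GNE-140, with 0 to 1 mitochondrial genes. Every list not named here stayed at 0 to 0.

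Between GM-453 and GNE-140, ER calls were 2 with limma-trend, the compared groups and quantile normalization, 3 with array weights and without dim features, and 0 with median centring and the fold limit. Co-chaperones gave 7, 5 and 0 with array weights, the compared groups and the fold limit, and mitochondrial genes 7 and 1 with the last 2. TRiC and prefoldin genes gave 1 with limma-trend, dim features left out, median centring and the replicate block, and 3 with array weights, the t-test and the compared groups. Stress genes gave 3 with array weights and 2 with the t-test, the compared groups and the replicate block, and J proteins 1 with array weights. Between paclitaxel and GNE-140, array weights gave 3 ER, 4 co-chaperone, 1 J protein, 4 mitochondrial, 4 stress and 4 TRiC and prefoldin calls. The compared groups gave 2, 4, 0, 2, 3 and 1, the t-test 2 co-chaperones, 1 J protein and 1 TRiC or prefoldin gene, and quantile normalization 1 ER gene. Leaving out 1 array gave, between GM-453 and GNE-140, 0 to 2 ER genes, 0 to 4 co-chaperones, 0 to 3 TRiC and prefoldin genes, 1 to 6 mitochondrial and 1 to 2 stress genes. Between paclitaxel and GNE-140 it gave 0 to 1 TRiC and prefoldin, mitochondrial and stress genes.

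Same-numbered samples had deviations correlated at -0.078 to 0.126. These values were not set against differently numbered samples, so they cannot decide whether same-numbered samples share a culture or batch. The replicate block leaves control replicate 4 without a partner. Median centring lowered each GNE-140 difference from the controls by 0.11, and DNAJB1 then gave 0.39 (limma adjusted p = 0.113).

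Some fold changes near 0 changed sign, none of them past the threshold before or after. With quantile normalization DNAJB1 for GM-453 gave -0.041, and for paclitaxel DNAJB12 gave -0.067 and HSP90AA1 -0.051. With median centring, for GNE-140, DNAJB9 gave -0.072, DNAJC3 -0.0040 and HSF1 -0.076. With the replicate block HSPA9 gave -0.016, DNAJB4 -0.0056 and BAG3 0.042 for paclitaxel, and DNAJB9 -0.026 for GNE-140. BAG3 for paclitaxel gave 0.0019 with array weights. With 1 array left out, the ranges for paclitaxel were -0.074 to 0.038 for BAG3, -0.17 to 0.12 for CRYAB, -0.086 to 0.027 for DNAJC21 and -0.15 to 0.36 for HSPB8. For GNE-140 they were -0.11 to 0.26 for DNAJB9, -0.11 to 0.029 for HSPA9, -0.22 to 0.050 for HSPB8 and -0.085 to 0.095 for HSF1. For GM-453 they were -0.0043 to 0.075 for DNAJB1 and -0.20 to 0.052 for HSPB8. Of 264 fold changes of named genes recomputed, 149 were not followed one by one: those of members with an unadjusted p of 0.05 or more, outside the core and called genes' comparisons with the controls, and those of related genes that did not pass. This was a choice made after the sign changes had been seen. Of those, 47 crossed 0 in some fit, reaching 0.195 at most, and 13 passed the threshold in some fit.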
